A study of Mus musculus with 8 samples.

Results

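The transcripts described here are 10 long RNAs that are not translated into a known protein, chosen by their symbols from the 48321 symbols of the count table. *Malat1* and *Neat1* are nuclear long noncoding RNAs. *Gas5*, *Snhg1*, *Snhg3*, *Snhg5*, *Snhg6*, *Snhg8* and *Snhg12* are host transcripts whose introns carry small nucleolar RNAs (snoRNAs), and *Mir17hg* is the primary transcript of the miR-17-92 microRNA cluster. All 10 were counted in each of the 8 libraries and all 10 passed the filter on low counts.

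The libraries were made from RNA of sorted splenic CD8+ T cells of C57BL/6 mice. The series is described as Satb1 F/F; E8I-cre, a conditional deletion of *Satb1*, which encodes a nuclear protein that organises chromatin, and E8I is an enhancer of the *Cd8a* locus that drives cre in mature CD8+ T cells. There were 2 libraries in each of 4 groups, WT day 0, KO day 0, WT day 5 and KO day 5, where day 5 cells had been cultured in vitro. The labels give neither the culture conditions, nor the ages, nor whether the WT mice carried the floxed allele or cre, and they do not say that the 2 libraries of a group came from separate mice. The p-values therefore measure the spread between these libraries, which may be technical.

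Most snoRNAs of vertebrates are cut out of introns, and the spliced exons of a noncoding host are left over. Many such hosts begin with a run of pyrimidines, the 5′ terminal oligopyrimidine (TOP) sequence shared with messenger RNAs of ribosomal proteins, and their spliced RNAs are degraded by nonsense-mediated decay when ribosomes engage them. *Malat1* accumulates in nuclear speckles, which are rich in splicing factors. *Neat1* is the scaffold of paraspeckles, nuclear bodies that hold RNA-binding proteins such as NONO and SFPQ. The microRNAs cut from *Mir17hg* are known for promoting the expansion and survival of lymphocytes.

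*Malat1* and *Neat1* are transcribed from the same strand of chromosome 19. *Malat1* and the long *Neat1* transcript of 20771 bases end in a structure in which U-rich tracts pair with an A-rich tract, in place of a normal poly(A) tail. *Neat1* has 4 annotated transcripts, and its count does not separate them. The last 100 bases up to the A-rich tract are shown because the shared words lie there. Both windows were placed to end on the last 11 bases of the *Neat1* transcript, so the final word, AAAAAGCAAAA, is shared by the choice of window. The annotated *Malat1* transcript runs on for 292 bases beyond it. They were read from the GENCODE transcripts on GRCm38, at chr19:5795982-5796081 for *Malat1* and chr19:5824708-5824807 for *Neat1*, both on the minus strand. Capitals mark the words of at least 11 bases that both windows hold in the same order.
Malat1: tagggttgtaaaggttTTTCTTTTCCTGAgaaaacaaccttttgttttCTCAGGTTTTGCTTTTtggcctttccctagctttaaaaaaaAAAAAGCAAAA
Neat1: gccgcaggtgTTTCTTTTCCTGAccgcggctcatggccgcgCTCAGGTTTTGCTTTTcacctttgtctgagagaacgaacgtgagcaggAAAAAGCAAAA
Read on the transcript strand, the word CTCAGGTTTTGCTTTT was found in 2 of 141767 annotated transcripts (0.00141%). TTTCTTTTCCTGA was found in 35 (0.0247%) and AAAAAGCAAAA in 618 (0.436%).

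The snoRNA hosts were compared at their starts, where a TOP sequence would lie. The windows below run from 10 bases before to 20 bases from the RefSeq start (GRCm38.p6), and capitals mark the longest run of C and T, or the first of them where several are equally long, as at the first *Gas5* start. Entries were matched for 6 of the 7 hosts, all but *Snhg6*, with 2 starts for *Gas5*.
Gas5, chr1:161034591-161034620, plus strand: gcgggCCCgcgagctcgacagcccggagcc
Gas5, chr1:161035156-161035185, plus strand: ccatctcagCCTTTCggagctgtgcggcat
Snhg1, chr19:8723477-8723506, plus strand: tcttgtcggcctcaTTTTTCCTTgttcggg
Snhg3, chr4:132353667-132353696, minus strand: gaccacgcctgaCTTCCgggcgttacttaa
Snhg5, chr9:88522878-88522907, minus strand: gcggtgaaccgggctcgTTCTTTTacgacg
Snhg8, chr3:123508317-123508346, minus strand: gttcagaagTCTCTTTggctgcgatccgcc
Snhg12, chr4:132308668-132308697, plus strand: ttctcagTCCTTTCTCgcttcatccgcggt
The runs of *Snhg1* and *Snhg12* were 9 bases long, a length reached in 7.11% of all 32851 windows of the same 30 bases. Runs of 7 bases, as in *Snhg5* and *Snhg8*, were reached in 17.9%, and the run of 6 at the second *Gas5* start in 28.7%. The run of 5 in *Snhg3* was reached in 46.4% and the run of 3 at the first *Gas5* start in 88.3%. The runs were not required to begin at the start, counted as base 1. They began at base 5 in *Snhg1*, 3 in *Snhg3* and 8 in *Snhg5*. Before the start, they began at base -3 in *Snhg12*, -1 in *Snhg8*, and -5 and -1 at the first and second *Gas5* starts. A run in this window is a description of the sequence and not of a measured start, and the cells' own start sites were not measured here.

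The annotated exons of *Mir17hg* hold 6 microRNAs. Their mature sequences are shown with the seed, bases 2 to 8, in capitals, since the seed sets which targets a microRNA recognises (RefSeq, GRCm38.p6, plus strand).
miR-17-5p, chr14:115043684-115043706: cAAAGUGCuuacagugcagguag
miR-20a-5p, chr14:115044183-115044205: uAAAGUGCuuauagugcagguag
miR-18a-5p, chr14:115043867-115043889: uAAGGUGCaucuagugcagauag
miR-19a-3p, chr14:115044048-115044070: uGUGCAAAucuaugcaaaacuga
miR-19b-3p, chr14:115044358-115044380: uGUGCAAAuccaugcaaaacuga
miR-92a-3p, chr14:115044476-115044496: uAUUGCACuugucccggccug
miR-17-5p and miR-20a-5p share the seed AAAGUGC, and miR-19a-3p and miR-19b-3p share GUGCAAA. The symbols of the 6 microRNA genes had a count of 0 in all 8 libraries, and only the host transcript is measured here.

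The gene counts summed to between 4170126 and 11117971 per library. Levels are given as CPM, counts per 1e6 of a library total that was first multiplied by its scaling factor from the trimmed mean of M-values (TMM). CD8 T cell markers (*Cd3e*, *Cd3d*, *Cd8a*, *Cd8b1*, *Trac*) summed to 9827 to 10518 CPM at day 0 and 5835 to 6707 CPM at day 5. CD4 T cell markers stayed below 3 CPM, and B cell markers summed to 120 to 165 CPM at day 0 and 67.0 to 83.8 CPM at day 5. Myeloid markers summed to 12.4 to 22.1 CPM at day 0 and 34.6 to 73.3 CPM at day 5, NK cell markers to 10.7 to 17.3 CPM and 37.4 to 53.9 CPM, and erythroid markers stayed below 1 CPM. Within the myeloid list *Cd68* was called higher after culture in both genotypes and *Csf1r* lower in both, so the sum does not stand for each marker. Of the 4 B cell markers and the 3 NK cell markers, 1 each passed the filter on low counts. In WT day 5 replicate 2, 3 of the 4 B cell markers had no count while the sum was 68.4 CPM. The B cell and NK cell sums thus do not stand for each marker either. *Satb1* stood at 91.2 and 97.5 CPM for WT at day 0, against 124 and 144 CPM under the KO label, and its log2 fold change of 0.51 (SE 0.15) was not called (FDR 0.125). FDR is the Benjamini-Hochberg adjusted p of the quasi-likelihood test in edgeR, and a gene is called at an FDR under 0.05. At day 5 WT had 96.1 and 115 CPM and the KO label 56.3 and 62.1 CPM, and the log2 fold change, -0.84 with an SE of 0.15, was called (FDR 0.0162, edgeR). At day 0 the targeted gene was therefore not lower under the KO label, and these groups are called KO-labelled libraries throughout. Every genotype difference at day 0, and the culture change in these libraries, rests on that label.

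The levels of the 10 transcripts were compared per kilobase of exon. The length was that of all annotated exons merged, such as 20771 bases for *Neat1* from 4 transcripts and 3760 for *Gas5* from 25. Which of these transcripts were present was not measured, so the order rests on the annotated lengths. In WT day 0 libraries *Malat1* stood first at 890 ± 31.8 CPM per kb (SD, n = 2), *Gas5* second at 114 ± 14.7 CPM per kb and *Snhg5* next at 35.3 ± 0.135 CPM per kb. *Snhg3*, *Snhg6*, *Snhg8* and *Snhg1* followed between 19.2 and 23.4 CPM per kb, each overlapping its neighbour in the order. *Mir17hg* (5.01 ± 0.0310 CPM per kb), *Neat1* (3.68 ± 0.283 CPM per kb) and *Snhg12* (3.10 ± 0.134 CPM per kb) were lowest. *Malat1*, *Gas5* and *Snhg5* held the first 3 places by mean in all 4 groups. *Snhg5*, in place 3, overlapped *Snhg6* in KO-labelled day 0 libraries, at 23.8 to 26.3 CPM per kb against 16.9 to 26.6. *Neat1* stood at place 9 of 10 in WT and place 8 in KO-labelled libraries at day 0, and at place 10 at day 5 in both genotypes. In KO-labelled day 0 libraries it overlapped *Mir17hg*, in place 9, at 5.39 to 7.12 CPM per kb against 4.76 to 5.54. In KO-labelled day 5 libraries it overlapped *Snhg12*.

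**Figure D1:**
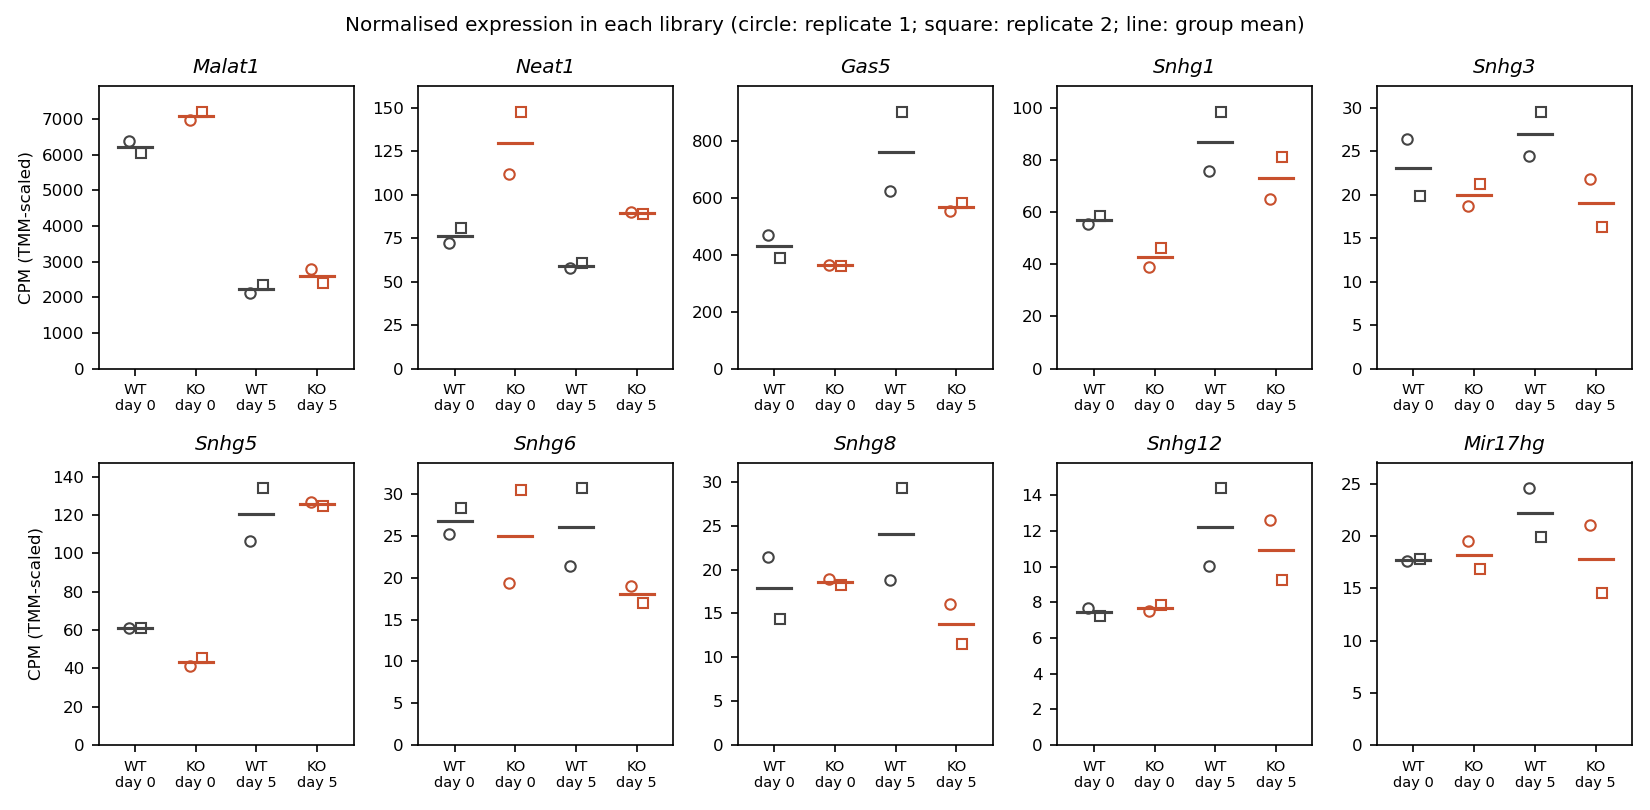
Normalised expression of the 10 transcripts in each library, in TMM-scaled CPM, on linear axes that start at 0. Circles are replicate 1, squares replicate 2 and lines the mean of the 2 libraries. *Malat1* lies between 6056 and 7205 CPM at day 0 and between 2122 and 2799 CPM at day 5, whereas *Snhg6* and *Mir17hg* overlap between days in WT or in KO-labelled libraries.

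The first comparison asked how these RNAs differed before and after culture. Of the 10, 4 were called between day 0 and day 5 in WT, with *Gas5*, *Snhg1* and *Snhg5* higher and *Malat1* lower. In KO-labelled libraries 5 were called, the same 3 hosts higher and *Malat1* and *Neat1* lower. Across all 12597 tested genes 48.3% were called in WT (24.7% higher, 23.6% lower) and 50.2% in KO-labelled libraries (26.2% higher, 24% lower), so the share among these transcripts is close to that of all genes. Values of the 2 days did not overlap for 7 of 10 in WT and 8 of 10 in KO-labelled libraries, beside 73.7% and 77.9% of all tested genes. The median log2 fold change of the 10 was 0.37 in WT and -0.05 in KO-labelled libraries, and that of all tested genes -0.04 and -0.05. Scaling by library totals alone moved the median of all genes by -0.13 in WT and by -0.18 in KO-labelled libraries. The split in WT then became 2 higher and 2 lower, since *Snhg1* lost its call and *Neat1* gained one. With a GC and length offset the split in KO-labelled libraries became 3 higher and 1 lower.

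**Figure D2:**
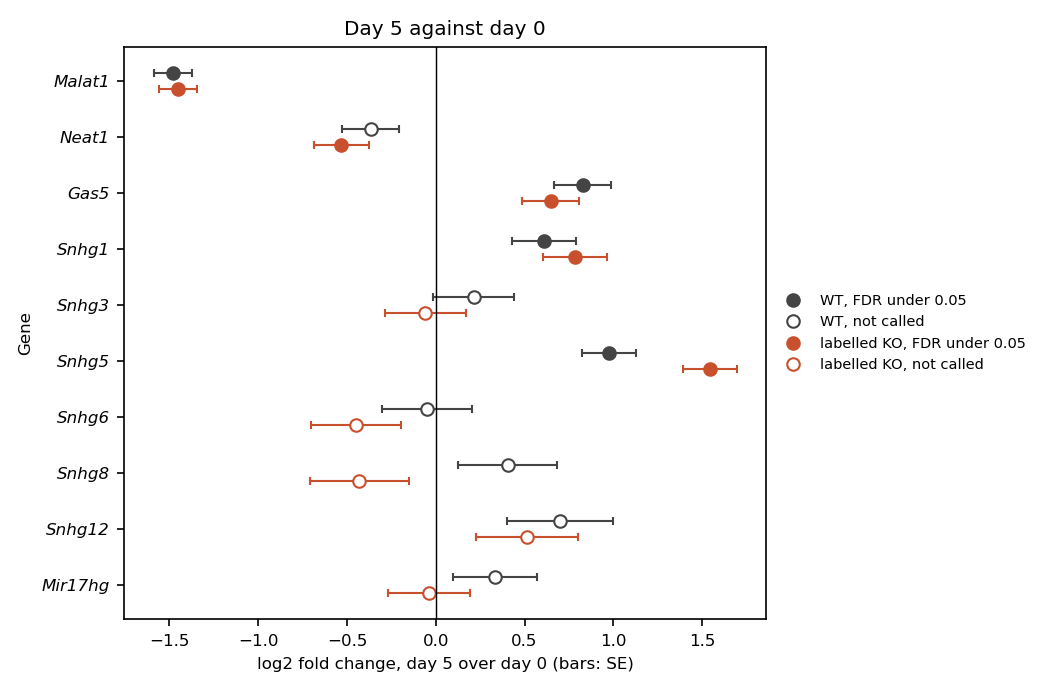
Log2 fold change of each transcript from day 0 to day 5 in WT (grey) and in KO-labelled libraries (orange), with bars of 1 SE from the edgeR fit. Filled points passed an FDR of 0.05. *Malat1* lies near -1.5 in both, and *Snhg5* has the highest point, 1.54, in KO-labelled libraries.

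*Malat1* (ENSMUSG00000092341.3, chromosome 19, 5795690 to 5802672, minus strand, 1 exon of 6983 bases in the merged annotation) was 6370 and 6056 CPM in WT day 0 libraries and 2122 and 2329 CPM at day 5. In KO-labelled libraries it was 6980 and 7205 CPM at day 0 and 2799 and 2386 CPM at day 5. The day 5 libraries were all below the day 0 libraries in both genotypes. The log2 fold change was -1.48 in WT (SE 0.11, FDR 2.69e-07) and -1.45 in KO-labelled libraries (SE 0.11, FDR 2.79e-07, edgeR), 2.79-fold and 2.74-fold lower. Both were called under all 18 alternative settings, between -1.61 and -1.39 in WT and between -1.63 and -1.29 in KO-labelled libraries. *Malat1* alone held 0.636% to 0.770% of all gene counts at day 0 and 0.195% to 0.261% at day 5. Over the same days the reads that fell in no annotated feature moved from 1.31 to 1.59 per assigned read at day 0 to 1.12 to 1.21 at day 5, and their part in the *Malat1* change was not tested. In bulk RNA, fewer cells of a type and less RNA per cell cannot be told apart, and CPM are shares of a library that do not measure RNA per cell.

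Part of *Malat1* is shared with another annotated gene. *Gm37376* (chromosome 19, 5801941 to 5802393, plus strand) is 453 bases long and lies wholly inside the *Malat1* exon on the other strand, where it covers 6.49% of its length. It had 22295 reads beside 35741 for *Malat1* in WT day 0 replicate 1, and 8771 CPM per kb against 912 CPM per kb. The ratio of its count to that of *Malat1* lay between 0.616 and 0.631 in all 8 libraries. *Gm27694*, which lies inside the *Malat1* exon on the same strand, had no count in any library, while *Gm37376* on the other strand had counts in all 8. The sources used here give neither the strand setting of the counting nor whether the libraries kept the strand of the RNA, so which of the pair a read came from cannot be told apart. Summed, the pair was 10105 ± 337 CPM in WT and 11522 ± 229 CPM in KO-labelled libraries at day 0 (SD, n = 2), and 3609 ± 255 CPM and 4215 ± 496 CPM at day 5. The day 5 sums thus lay below the day 0 sums as the single counts did. *Gm37376* was also the gene whose pattern over the 8 libraries was most like that of *Malat1* among 7991 genes of at least 10 CPM, with a root mean square difference of 0.011 in centred log2 CPM. *Fryl* came next at 0.063.

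**Figure D3:**
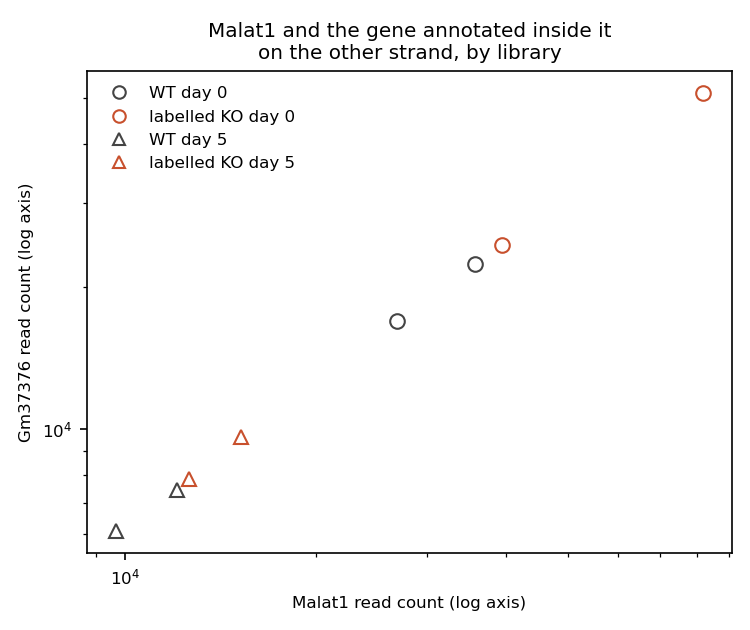
Read counts of *Malat1* (horizontal) and of *Gm37376*, annotated inside it on the other strand (vertical), on log axes, 1 point per library. Circles are day 0 and triangles day 5, with WT in grey and KO-labelled libraries in orange. The 8 points lie along 1 line because the ratio stays between 0.616 and 0.631.

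Proteins of nuclear speckles, the bodies in which *Malat1* accumulates, moved in both directions. Of 10 tested, 1 was higher and 4 lower in WT, and 1 was higher and 5 lower in KO-labelled libraries, with median log2 fold changes of -0.06 and -0.29. Of all tested genes 24.7% and 26.2% were higher and 23.6% and 24% lower. *Srrm1*, a splicing coactivator, rose by 0.75 (SE 0.12) in WT and by 0.58 (SE 0.12) in KO-labelled libraries on the log2 scale. *Son*, a large scaffold protein of speckles, fell by 0.57 (SE 0.14) in WT and by 0.99 (SE 0.14) in KO-labelled libraries. *Acin1* fell by 0.99 (SE 0.22) and by 0.87 (SE 0.22).

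*Neat1* (ENSMUSG00000092274.3, chromosome 19, 5824708 to 5845478, minus strand, 20771 bases) was 72.4 and 80.7 CPM in WT day 0 libraries and 112 and 148 CPM in KO-labelled day 0 libraries. At day 5 it was 57.6 and 61.0 CPM in WT and 90.4 and 88.9 CPM in KO-labelled libraries. On each day both KO-labelled libraries were above both WT libraries. At day 0 the log2 fold change was 0.76 (SE 0.16, FDR 0.0301, edgeR), 1.70-fold higher in KO-labelled libraries. At day 5 it was 0.60 (SE 0.16) and was not called (FDR 0.0931), while DESeq2 called it (FDR 0.0439). The interaction of genotype and day was -0.17 (SE 0.22, FDR 0.828, edgeR), which did not pass the threshold. The day 0 call was lost under the GC and length offset (0.62, FDR 0.0532) and when WT day 0 replicate 1 (0.69, FDR 0.270), WT day 0 replicate 2 (0.84, FDR 0.170), KO day 0 replicate 2 (0.57, FDR 0.141), KO day 5 replicate 1 (0.76, FDR 0.0620) or KO day 5 replicate 2 (0.76, FDR 0.0628) was left out. The sign stayed positive under all 18 settings.

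With culture, *Neat1* fell by 0.53 on the log2 scale in KO-labelled libraries (SE 0.16, FDR 0.0125, edgeR). In WT its log2 fold change was -0.37 (SE 0.16), which was not called (FDR 0.0788). *Neat1* has more exon sequence than 99.4% of the tested genes with a known length. With the GC and length offset the change in KO-labelled libraries was 0.07 (FDR 0.688) and that in WT 0.09 (FDR 0.647), so its direction depends on that setting. Leaving out KO day 0 replicate 2, the highest library, gave -0.31 (FDR 0.151) in KO-labelled libraries, and the call was also lost without KO day 5 replicate 1 (FDR 0.0719) or replicate 2 (FDR 0.0973). The patterns most like that of *Neat1* were those of *Cers4* (root mean square difference 0.113) and *Gm37756* (0.127).

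**Figure D4:**
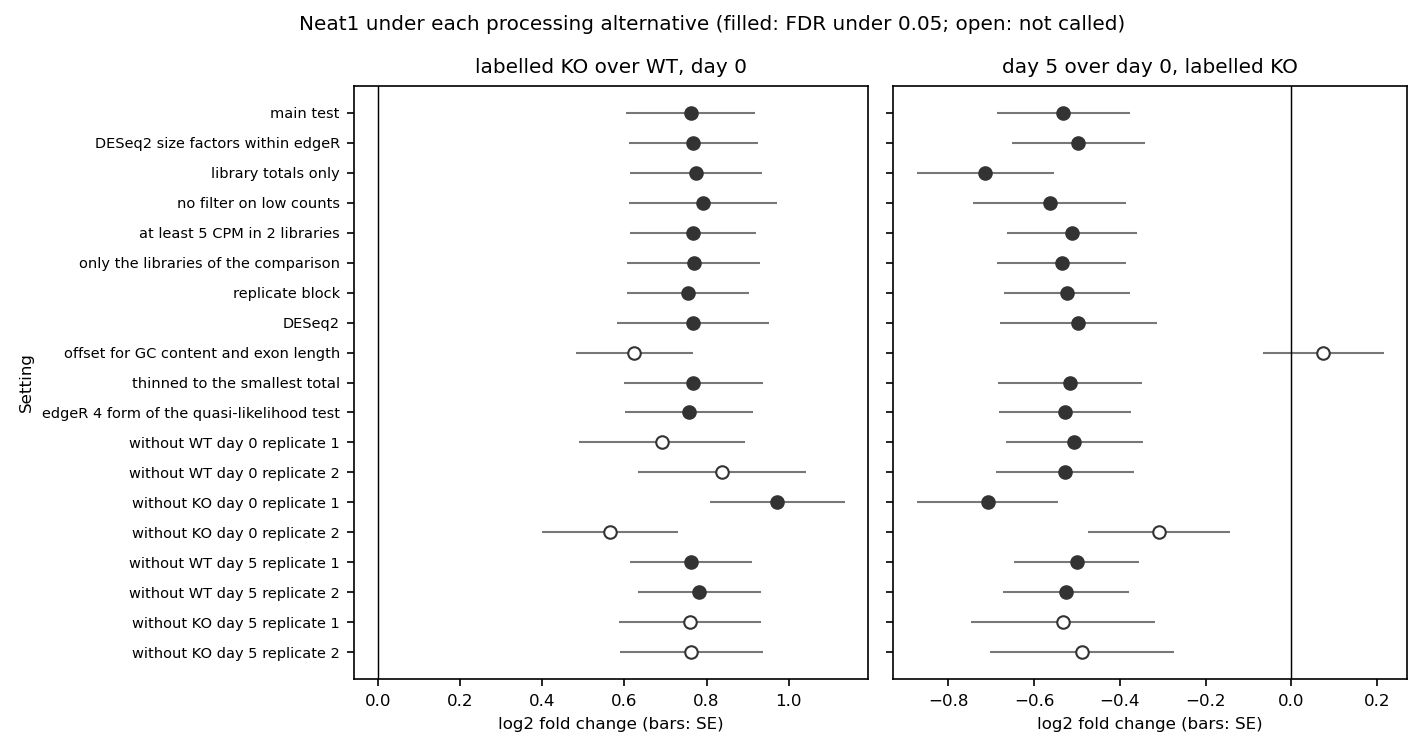
Log2 fold change of *Neat1* between genotypes at day 0 (left) and with culture in KO-labelled libraries (right), in the main test and under each of the 18 alternatives, with bars of 1 SE. Filled points passed an FDR of 0.05. All points on the left are above 0, and on the right the GC and length offset is the 1 point above 0.

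Of 8 tested paraspeckle proteins 3 were higher after culture in WT and 2 in KO-labelled libraries, beside 24.7% and 26.2% of all tested genes, and none was lower. *Pspc1* rose by 1.35 (SE 0.40) and by 1.09 (SE 0.36) on the log2 scale, and *Nono* by 0.55 (SE 0.11) and by 0.66 (SE 0.11). *Tardbp*, an RNA-binding protein, rose by 0.33 in WT (SE 0.12). The median log2 fold change of the list was 0.15 in WT and -0.03 in KO-labelled libraries.

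The 7 snoRNA hosts divided into 3 that were called with culture in both genotypes and 4 that were called in neither, and 48.3% and 50.2% of all tested genes were called, so the number called is near that of all genes. *Gas5* (ENSMUSG00000053332.13, chromosome 1, 161034422 to 161038539, plus strand), the host best known from growth-arrested cells, was 469 and 391 CPM in WT day 0 libraries and 624 and 904 CPM at day 5. In KO-labelled libraries it was 365 and 361 CPM at day 0 and 555 and 583 CPM at day 5. All day 5 libraries were above all day 0 libraries. The log2 fold change was 0.83 in WT (SE 0.16, FDR 0.00104), 1.78-fold, and 0.65 in KO-labelled libraries (SE 0.16, FDR 0.00489, edgeR), 1.57-fold. It made up 67.3% to 72.9% of the summed CPM of the 7 hosts in every library. Its pattern was most like those of *3110052M02Rik* (root mean square difference 0.081) and *Fas* (0.090).

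*Snhg5* (ENSMUSG00000097195.9, chromosome 9, 88521050 to 88522929, minus strand), host of *Snord50a* and *Snord50b*, was 61.0 and 61.3 CPM in WT day 0 libraries and 107 and 134 CPM at day 5. In KO-labelled libraries it was 41.1 and 45.5 CPM at day 0 and 127 and 125 CPM at day 5. The days were well apart in both genotypes, and at day 0 both KO-labelled libraries were below both WT libraries. The log2 fold change with culture was 0.97 in WT (SE 0.15, FDR 1.86e-04) and 1.54 in KO-labelled libraries (SE 0.15, FDR 3.55e-06, edgeR), 1.97-fold and 2.91-fold. The difference between the 2 changes was 0.57 (SE 0.21) and did not pass the threshold (FDR 0.315, edgeR). It was the 1 transcript of the 10 with an unadjusted p under 0.05 in that test.

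*Snhg1* (ENSMUSG00000108414.1, chromosome 19, 8723475 to 8726443, plus strand), which hosts 8 annotated snoRNAs, was 55.6 and 58.6 CPM in WT day 0 libraries and 75.7 and 98.7 CPM at day 5. In KO-labelled libraries it was 39.1 and 46.4 CPM at day 0 and 65.1 and 81.3 CPM at day 5. Day 5 was above day 0 within each genotype. The log2 fold change was 0.61 in WT (SE 0.18, FDR 0.0145) and 0.78 in KO-labelled libraries (SE 0.18, FDR 0.00312, edgeR). The WT call was lost in 5 of 18 settings: with library totals alone (0.48, FDR 0.0572), with the GC and length offset (0.38, FDR 0.112), and without WT day 0 replicate 1 (FDR 0.0742), WT day 0 replicate 2 (FDR 0.0559) or WT day 5 replicate 2 (0.43, FDR 0.101).

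With all 8 libraries the other 4 hosts were not called in any comparison. *Snhg12* (chromosome 4, 132308623 to 132311024, plus strand) was 7.66 and 7.21 CPM in WT day 0 libraries, 10.02 and 14.4 CPM at day 5, 7.52 and 7.86 CPM in KO-labelled day 0 libraries, and 12.6 and 9.24 CPM at day 5. Both days were apart in both genotypes, yet its log2 fold changes of 0.70 (SE 0.30, FDR 0.0724) and 0.51 (SE 0.29, FDR 0.158, edgeR) did not pass the threshold. *Snhg8* (chromosome 3, 123507552 to 123508404, minus strand), host of *Snora24*, was 21.4 and 14.4 CPM in WT and 18.98 and 18.3 CPM in KO-labelled libraries at day 0, and 18.8 and 29.3 CPM and 16.1 and 11.5 CPM at day 5. Its KO-labelled day 5 libraries were below its day 5 WT libraries, and the fitted log2 value of -0.79 (SE 0.28) was not called (FDR 0.211, edgeR). Without WT day 5 replicate 2 the value was -0.43 (FDR 0.641) and without replicate 1 it was -1.07 (FDR 0.119). *Snhg6* (chromosome 1, 9941959 to 9944118, minus strand) lay between 16.98 and 30.7 CPM in the 8 libraries and *Snhg3* (chromosome 4, 132348014 to 132353686, minus strand) between 16.2 and 29.5 CPM. The culture changes of *Snhg6* were -0.05 in WT and -0.45 in KO-labelled libraries, and those of *Snhg3* 0.21 and -0.06, with SEs of 0.23 to 0.25. Without KO day 0 replicate 1 the value of *Snhg6* in KO-labelled libraries was -0.74 and was called (FDR 0.0378, edgeR), and without KO day 0 replicate 2 it was -0.09 (FDR 0.796).

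*Snhg3* is the host whose count is least certain. Exons of *Gm17300* on the other strand cover 71.5% of its exon length and exons of *Rcc1* on its own strand 13.7%. *Gm17300* had between 1.06 and 1.78 reads per read of *Snhg3*. The same limit on strand holds for this pair. *Snhg6* shares 11.1% of its exon length with *Mcmdc2* on the other strand, which had 10 to 33 reads per library.

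The WT day 5 libraries differed in the same direction for all 7 hosts. In replicate 2 all 7 were above replicate 1, by 1.21 to 1.56 times, while in the other 3 groups 2 to 5 of the 7 were higher in replicate 2. The share of all tested genes higher in replicate 2 was not counted, so this difference is not shown to be particular to the hosts. Over 12612 genes the 2 WT day 5 libraries had a chi-square per degree of freedom of 9.40, beside 9.31 for KO-labelled day 0 libraries. The TMM scaling factor of that library was 0.999, and those of the other day 5 libraries were 0.921 to 0.937. Without WT day 5 replicate 2 the culture change in WT was 0.56 for *Gas5* (FDR 0.00512) and 0.82 for *Snhg5* (FDR 0.00121, edgeR), and *Snhg1* was no longer called. Leaving out WT day 5 replicate 1 instead gave 1.10 for *Gas5* and 1.16 for *Snhg5*, and *Snhg12* was then called (0.97, FDR 0.0396, edgeR).

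The count table also lists the snoRNAs themselves. There are 27 snoRNA symbols inside the spans of the 7 hosts. The 25 that overlap annotated host exons had no count in any library, and the 2 that lie outside them had counts, *Snora73b* in *Snhg3* between 11 and 57 and *Snord87* in *Snhg6* between 3 and 21. Which snoRNA symbols had counts thus followed whether they overlapped a host exon, and processed snoRNAs were not measured here. Among RNAs without a poly(A) tail *Rmrp* and *Terc* were at 0 in all libraries, *Rpph1* at 0 to 3 reads and *Rn7sk* at 1 to 6, although the series is described as total RNA sequencing.

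Other noncoding snoRNA hosts were called in both directions. Of 7 tested, 2 were higher and 1 lower after culture in WT, and 2 were higher and 2 lower in KO-labelled libraries, with medians of -0.27 and -0.52 on the log2 scale. Of all tested genes 24.7% and 26.2% were higher and 23.6% and 24% lower, so these counts are near those of all genes. *Zfas1* rose by 1.85 (SE 0.22) in WT and by 1.65 (SE 0.21) in KO-labelled libraries, and *Snhg4* by 0.80 (SE 0.28) and by 0.79 (SE 0.27). *Snhg17* fell by 0.66 (SE 0.21) and by 0.65 (SE 0.21). *Dancr* fell by 1.16 in KO-labelled libraries (SE 0.30), and its value in WT was -0.70 (FDR 0.0795, edgeR).

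Of 17 tested protein-coding genes with snoRNAs in their introns, 4 were called higher with culture in WT, which is near the 24.7% of all tested genes, and 11 in KO-labelled libraries, beside 26.2%. None was lower, beside 23.6% and 24% of all. *Taf1d*, a subunit of a factor for RNA polymerase I, rose by 1.14 (SE 0.18) in WT and by 1.35 (SE 0.18) in KO-labelled libraries. *Ncl*, which encodes nucleolin, rose by 0.60 (SE 0.16) and by 0.87 (SE 0.16). The translation factor gene *Eif4a1* was 477 ± 48.3 CPM in WT and 260 ± 53.2 CPM in KO-labelled libraries at day 0 (SD, n = 2), and it was the 1 gene of this list called between genotypes, at -0.87 on the log2 scale (SE 0.19, FDR 0.0389, edgeR). It rose by 1.30 (SE 0.19) with culture in KO-labelled libraries, while its change of 0.22 (SE 0.19) in WT was not called. The difference between those changes was 1.07 (SE 0.27, FDR 0.145, edgeR) and did not pass the threshold.

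Proteins that build snoRNPs, the particles of a snoRNA and its partner proteins, were called higher for 8 of 15 and lower for 1 in WT, and higher for 4 and lower for 1 in KO-labelled libraries. Of all tested genes 24.7% and 26.2% were higher and 23.6% and 24% lower, so in KO-labelled libraries the share called higher is near that of all genes. *Ruvbl2*, an ATPase of the assembly complex, rose by 1.84 (SE 0.20) and by 1.68 (SE 0.19) on the log2 scale. *Znhit3* rose by 1.07 (SE 0.17) and by 0.79 (SE 0.17). *Naf1* and *Nufip1* rose in WT by 1.999 (SE 0.59) and by 1.83 (SE 0.41). *Nop10*, a core protein of H/ACA particles, fell by 0.34 (SE 0.12) in WT and by 0.60 (SE 0.13) in KO-labelled libraries.

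Factors of nonsense-mediated decay, the pathway that degrades spliced hosts, were called lower for 4 of 10 in WT and 6 of 10 in KO-labelled libraries, beside 23.6% and 24% of all tested genes, and none was higher. The list had medians of -0.65 and -0.92 on the log2 scale against -0.04 and -0.05 for all tested genes. *Smg1*, the kinase that phosphorylates UPF1, fell by 1.10 (SE 0.13) in WT and by 1.47 (SE 0.13) in KO-labelled libraries. *Smg5* fell by 1.46 (SE 0.31) and by 2.23 (SE 0.32), and *Smg9* by 2.22 (SE 0.36) and by 1.14 (SE 0.34). These are RNA levels, and the rate of decay was not measured here.

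*Mir17hg* (ENSMUSG00000089726.2, chromosome 14, 115042879 to 115046727, plus strand) was 17.6 and 17.8 CPM in WT day 0 libraries and 24.6 and 19.9 CPM at day 5. In KO-labelled libraries it was 19.6 and 16.8 CPM at day 0 and 21.1 and 14.5 CPM at day 5. The WT days did not overlap, and those of KO-labelled libraries did. The log2 fold change was 0.34 in WT (SE 0.24, FDR 0.264) and -0.04 in KO-labelled libraries (SE 0.23, FDR 0.901, edgeR), and neither was called under any of the 18 alternatives. The patterns most like its own were those of *Larp4b* (root mean square difference 0.103) and *Txnrd1* (0.106).

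The transcription factors known to act on the *Mir17hg* promoter were called higher after culture for 5 of 5 in WT and 4 of 5 in KO-labelled libraries, beside 24.7% and 26.2% of all tested genes. *Myc* rose by 1.82 (SE 0.19) in WT and by 2.15 (SE 0.19) in KO-labelled libraries on the log2 scale, *E2f1* by 2.42 (SE 0.42) and by 2.86 (SE 0.41), and *E2f2* by 1.61 (SE 0.26) and by 1.99 (SE 0.25). *Mycn* was below 0.2 CPM on average in both day 0 groups, and 9.15 ± 0.722 CPM in WT and 15.7 ± 3.21 CPM in KO-labelled libraries at day 5 (SD, n = 2). The same libraries held activated or cycling T cell markers (*Gzmb*, *Il2ra*, *Mki67*, *Top2a*) at a sum of 22.7 to 35.0 CPM at day 0 and 9100 to 9917 CPM at day 5. Of the 4 listed markers of resting T cells, only *Tcf7*, *Lef1* and *Ccr7* are reported here. These were called lower with culture in both genotypes. The log2 values were -2.44 in WT and -2.14 in KO-labelled libraries for *Tcf7*, -2.30 and -2.56 for *Lef1*, and -0.80 and -0.61 for *Ccr7*. At day 5 *Lef1* was 248 ± 44.6 CPM in WT and 177 ± 9.53 CPM in KO-labelled libraries and *Ccr7* 1053 ± 19.3 CPM and 922 ± 21.8 CPM (SD, n = 2), without overlap, while *Tcf7* was lower in WT, at 198 ± 16.4 CPM against 236 ± 1.48 CPM, and none of these differences was called. At day 0 *Ccr7* also did not overlap, at 1838 ± 78.0 CPM in WT and 1404 ± 54.6 CPM (FDR 0.0905, edgeR). The part of these markers in the changes of the 10 transcripts was not tested.

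Of 7 tested genes that are textbook targets of miR-17-92 microRNAs, 2 were higher and 2 lower after culture in WT, and 1 was higher and 2 lower in KO-labelled libraries. These counts are near the shares of all tested genes, 24.7% and 26.2% higher and 23.6% and 24% lower. *Cdkn1a*, a cell cycle inhibitor, was below 0.4 CPM on average in both day 0 groups and 214 ± 17.3 CPM in WT and 363 ± 22.1 CPM in KO-labelled libraries at day 5 (SD, n = 2). It was the 1 target called between genotypes, at 0.76 on the log2 scale at day 5 (SE 0.13, FDR 0.0131, edgeR). *S1pr1*, the receptor for leaving lymphoid organs, fell by 2.85 (SE 0.12) in WT and by 2.50 (SE 0.11) in KO-labelled libraries. *Tgfbr2* fell by 1.56 (SE 0.18) and by 2.18 (SE 0.18), and *Bcl2l11*, which promotes cell death, rose by 0.83 (SE 0.24) in WT. Among 4 tested host or cluster transcripts of other microRNAs 2 were higher in both genotypes, beside 24.7% and 26.2% of all tested genes. *Mir22hg* rose by 3.02 (SE 0.64) in WT and by 1.30 (SE 0.44) in KO-labelled libraries. *Mcm7*, whose intron holds the related miR-106b-25 cluster, rose by 0.54 (SE 0.14) and by 1.15 (SE 0.14).

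Between genotypes few of the 10 transcripts passed the test. At day 0 the 1 called was *Neat1*, beside 1.8% of all tested genes in either direction and 0.913% higher (2.36% in either direction with DESeq2). At an unadjusted p under 0.05 there were 3 of 10, beside 13.8% of all, and 5 of 10 did not overlap between genotypes, beside 43.5% of all. At day 5 edgeR called 0 of 10, beside 1.63% of all tested genes, with 3 at an unadjusted p under 0.05, beside 14.1% of all, and 1, *Neat1*, called by DESeq2, beside 2.79% of all. Groups did not overlap for 6 of 10 at day 5, beside 45.6% of all. In the interaction edgeR and DESeq2 called 0 of 10, beside 0.159% of all tested genes for edgeR and 1.07% for DESeq2, with 1 at an unadjusted p under 0.05 (edgeR), beside 12.4% of all.

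**Figure D5:**
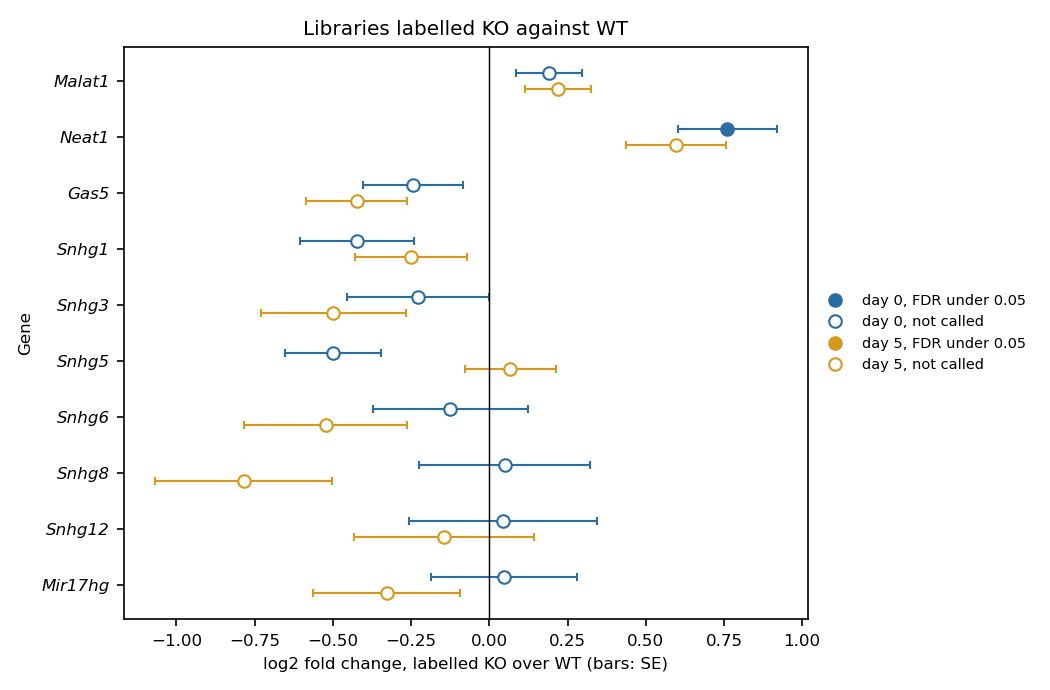
Log2 fold change of each transcript between KO-labelled libraries and WT at day 0 (blue) and day 5 (yellow), with bars of 1 SE from the edgeR fit. Filled points passed an FDR of 0.05. *Neat1* at day 0 is the 1 filled point, and *Malat1* and *Neat1* are the 2 transcripts above 0 by more than 1 SE at both days.

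*Malat1* was higher in KO-labelled libraries by 0.19 at day 0 (SE 0.11, FDR 0.470) and by 0.22 at day 5 (SE 0.11, FDR 0.381, edgeR) on the log2 scale, which was not called at either day. Among the 7 hosts the log2 fold changes lay between -0.50 and 0.05 at day 0 and between -0.79 and 0.07 at day 5, with medians of -0.23 and -0.42, and edgeR and DESeq2 called 0 of them at each day, with 2 of 7 at each day at an unadjusted p under 0.05 (edgeR), beside 13.8% and 14.1% of all tested genes. The medians rested on single libraries. At day 5 the median was -0.12 without WT day 5 replicate 2 and -0.63 without replicate 1, and at day 0 it lay between -0.37 and -0.097 when each day 0 library was left out in turn. *Snhg5* had the lowest value at day 0 (-0.50, SE 0.15, FDR 0.156), and *Gas5* was at -0.24 (SE 0.16) at day 0 and -0.42 (SE 0.16, FDR 0.238) at day 5. *Gas5* at day 5 was called when WT day 5 replicate 1, the lower WT library, was left out (-0.66, FDR 0.0318, edgeR), and without WT day 5 replicate 2 it was -0.12 (FDR 0.782). *Mir17hg* was at 0.05 (SE 0.23) at day 0 and -0.33 (SE 0.23) at day 5. Outside the cell type markers, edgeR called 2 genes of the lists of related genes between genotypes, *Eif4a1* at day 0 and *Cdkn1a* at day 5. Among the cell type markers reported here, which are not all of those listed, *Cd8a* was higher in KO-labelled libraries at day 5. Its value was 0.60 on the log2 scale (FDR 0.0155, edgeR), and its part in the day 5 differences was not tested. The 2 culture comparisons share no library with each other, while each shares its libraries with the genotype comparisons.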

How the data were processed

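RNA from sorted splenic CD8+ T cells was sequenced in 50-base reads (NEBNext Ultra RNA kit). The deposited values are whole-number read counts per gene symbol, 1 table per library, made by the authors with HISAT2 2.1.0 and HTSeq 0.11.1 on mm10/GRCm38 (submitters' processing notes). The annotation and strand setting are not given in the sources used here. Assigned reads were 21.2% to 24.5% of records, and 5 summary lines were left out. Symbols were matched to GENCODE (46394 of 48321).

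Counts were fitted in edgeR 4.0.16 (R 4.3.3) by group means over 8 libraries with TMM scaling, a minimum count of 10 and the quasi-likelihood test. p-values were adjusted over 12597 genes (Benjamini-Hochberg), called at an FDR under 0.05. SEs are the log2 fold change over the square root of F. The code was tested on simulated data. DESeq2 1.42.0 was an alternative. The members and gene lists were chosen with earlier results of these data known. From each list at most 4 genes per comparison are named, those with the largest called changes, and some genes are not reported here. Within each group the 2 libraries were distinct (chi-square per degree of freedom 4.69 to 9.40).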

Additional observations from a re-analysis of the deposited data

Results flagged for a closer look

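The genotype difference of *Satb1* differed between the days, which is why it is listed here. The interaction was -1.34 on the log2 scale (SE 0.21, FDR 0.0269, edgeR), from 0.51 at day 0 to -0.84 at day 5. At day 0 both KO-labelled libraries were above both WT libraries, and at day 5 both were below. In the same test edgeR and DESeq2 called 0 of the 10 transcripts, with 1 at an unadjusted p under 0.05 (edgeR). Each group holds 2 libraries, and the cause of this change of sign was not tested.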

How the results depend on the processing

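Of 890 alternative values of the 10 transcripts 838 kept their direction and their side of the threshold, 14 lost a call, 5 gained one and 33 changed sign. Each gene fold change below is a log2 value. The members called between genotypes at day 0 went from 1 to 0 with the GC and length offset, and at day 5 from 0 to 1 with DESeq2. Without single libraries both counts lay between 0 and 1. With that offset the sign changed for *Neat1* with culture in WT (0.091) and in KO-labelled libraries (0.074), *Snhg3* with culture in WT (-0.22), *Mir17hg* at day 0 (-0.034) and with culture in KO-labelled libraries (0.053), and the *Gas5* interaction (0.012). Thinning each library to 4170126 counts gave 0.0016 for *Snhg6* with culture in WT and 0.011 for *Mir17hg* with culture in KO-labelled libraries, and library totals alone gave -0.023 for the *Malat1* interaction. Of these the 1 called value was that of *Neat1* in KO-labelled libraries, and the cause was not tested.

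Leaving out single libraries changed the sign of values that were not called. Between genotypes at day 0 the ranges were -0.41 to 0.0081 for *Snhg3*, -0.45 to 0.21 for *Snhg6*, -0.20 to 0.38 for *Snhg8*, -0.00067 to 0.099 for *Snhg12* and -0.055 to 0.16 for *Mir17hg*. At day 5 they were -0.082 to 0.25 for *Snhg5* and -0.39 to 0.14 for *Snhg12*. With culture they were -0.30 to 0.22 for *Snhg6* in WT, -0.28 to 0.17 for *Snhg3* and -0.32 to 0.23 for *Mir17hg* in KO-labelled libraries. For the interaction they were -0.088 to 0.14 for *Malat1*, -0.39 to 0.035 for *Neat1*, -0.42 to 0.097 for *Gas5*, -0.0017 to 0.36 for *Snhg1* and -0.43 to 0.072 for *Snhg12*. Where a group was left with 1 library, that library was assumed to vary like the others.

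The replicate numbers gave no established pairing, with correlations of the deviations of same-numbered libraries between -0.074 and 0.228 over the 6 pairs of groups. The replicate block left the number of members called at 1, 0, 4, 5 and 0 in the comparisons of genotype at day 0 and day 5, culture in WT and in KO-labelled libraries, and the interaction. The edgeR 4 form of the test was added after seeing the data and changed no call of the 10. For *Snhg12*, the transcript of lowest count (32 to 88 reads), SEs were near 0.30 and a culture change of 0.70 was not called.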

Other observations

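Other long noncoding RNAs changed in both directions with culture. Of 10 tested, 5 were higher and 1 lower in WT, and 5 were higher and 2 lower in KO-labelled libraries, beside 24.7% and 26.2% of all tested genes higher and 23.6% and 24% lower. *Gm14005* was below 0.2 CPM on average in both day 0 groups and 12.1 ± 2.81 CPM in WT and 9.27 ± 2.70 CPM in KO-labelled libraries at day 5, and *Trp53cor1* below 0.1 CPM and then 1.76 ± 1.25 CPM and 2.50 ± 0.606 CPM (SD, n = 2). *Dleu2* rose by 2.53 (SE 0.17) in WT and by 1.27 (SE 0.16) in KO-labelled libraries on the log2 scale, *Pvt1* by 1.83 (SE 0.23) and by 2.76 (SE 0.23), and *Firre* by 1.83 in KO-labelled libraries (SE 0.33). *Kcnq1ot1*, chosen after its values were seen, was 58.9 ± 10.7 CPM at day 0 and 90.0 ± 25.6 CPM at day 5 in WT, and 92.9 ± 13.4 CPM and 56.4 ± 3.45 CPM in KO-labelled libraries (SD, n = 2). It was called higher in WT (0.61, FDR 0.0282) and lower in KO-labelled libraries (-0.72, FDR 0.0105), and the difference of the changes was -1.33 (SE 0.29, FDR 0.1096, edgeR), which was not called.

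Genes next to the 10 transcripts did not all move with them. *Slc3a2*, an amino acid transporter subunit annotated 105 bases from *Snhg1* on the other strand, rose by 1.17 (SE 0.17) in WT and by 1.80 (SE 0.18) in KO-labelled libraries with culture on the log2 scale, and was lower in KO-labelled libraries at day 0 (-0.81, SE 0.18, FDR 0.0407, edgeR). *Syncrip* and *Zfp949*, on either side of *Snhg5*, were not called in any comparison, with culture changes between -0.03 and 0.03.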
